A study of Rattus norvegicus with 9 samples.

Results

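Collagen mRNAs were examined in bone RNA of female Sprague–Dawley rats after sham surgery, ovariectomy (OVX), or ovariectomy followed by astragaloside IV (AS-IV), a saponin of Astragalus. The members were all genes of the count table whose symbol has the form of a collagen chain (type number, the letter a, chain number) and that had a count above 0 in any library. This gave 44 of 23026 genes, of which 11 encode fibrillar collagens, 9 network collagens, 9 FACITs (collagens that bind to fibrils) and 15 other collagens. A total of 43 members passed the filter on low counts, together 43 of 16874 genes tested. The exception was Col4a6, with 2 to 11 counts per library.

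The Sham group (3 libraries) kept its ovaries and lost only an equal amount of nearby fat. The OVX group (3 libraries) had both ovaries removed. The OVX-AS-IV-High group (3 libraries, called AS-IV from here on) had the same ovariectomy and received AS-IV at 80 mg/kg by gavage for 8 weeks, beginning 6 weeks after surgery. The methods describe rats aged 8 weeks on purchase, 3 biological replicates per group and a frozen femur kept for molecular work, and the labels say only bone. Sham and OVX rats received CMC-Na, a carrier without drug, over the same 8 weeks. By the methods, AS-IV was itself prepared in 1% CMC-Na. The labels give 1% CMC-Na for all 3 OVX libraries but 1%, 2% and 3% for Sham replicates 1, 2 and 3, whereas the methods name a single concentration. The Sham libraries were kept as 1 group.

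Collagens are triple helices of chains rich in glycine, proline and hydroxyproline. Type I collagen, built from the chains of Col1a1 and Col1a2, is the main protein of bone and is secreted by osteoblasts. Type II collagen, with types IX, X and XI, belongs to cartilage, including the growth plate, where type X marks hypertrophic chondrocytes. Types IV, XV and XVIII lie in or near basement membranes, and type VI forms beaded filaments around cells.

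The libraries held 34874880 to 37298250 counts, so counting error was small for abundant chains. Bone markers were present in every library: 0 of 14 osteoblast and bone matrix genes were at 0, and their summed level was 1967 to 5793 CPM (counts scaled to library size). Muscle markers were also present, with a summed level of 9094, 6366 and 1597 CPM in Sham replicates 1 to 3, 3333, 1921 and 1606 in OVX, and 4755, 2098 and 557 in AS-IV, over 9 genes of which 0 were at 0. In bulk bone, fewer cells of a type and less RNA per cell cannot be told apart.

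Levels of different chains were set side by side as FPKM, which is per kilobase of gene length. Col1a1 had the highest mean over the 9 libraries (961 ± 447 FPKM, SD, n = 9), followed by Col1a2 (763 ± 364), Col2a1 (206 ± 123) and Col3a1 (116 ± 38.8). Col1a1 and Col1a2 are the paired chains of bone collagen, Col2a1 is the chain of cartilage collagen, and Col3a1 is a chain of soft tissue and vessel walls. These 4 were the only members at 100 FPKM or more. A further 15 members had a mean of 10 to 100 FPKM, 12 had 1 to 10 and 13 were under 1. In the plot of FPKM by class, fibrillar collagens reached down to 1.67 FPKM (Col24a1) and each of the other 3 classes to under 1 FPKM. The most abundant network collagen was Col10a1 (26.4 FPKM), the most abundant FACIT was Col9a3 (26.3 FPKM), and the most abundant of the other collagens was Col6a1 (44.9 FPKM). The SDs of Col1a1 and Col1a2 were larger than the difference between their means, and the same held for Col10a1 and Col9a3. These SDs are between libraries, and within each of the 9 libraries Col1a1 was above Col1a2 (FPKM ratio 1.19 to 1.37).

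**Figure D1:**
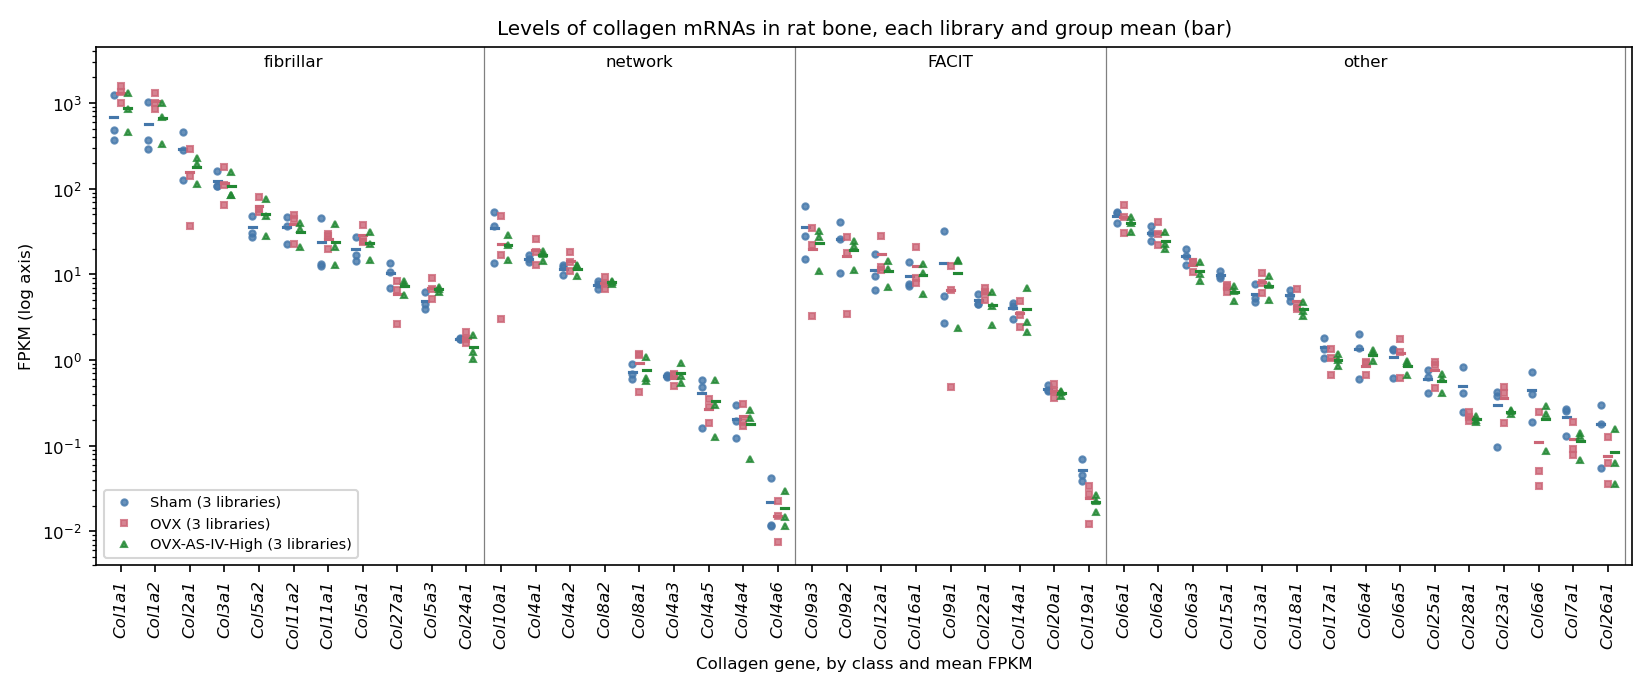
FPKM of the 44 collagen genes on a log axis, by class and mean level, with 1 point per library (3 per group) and a bar at each group mean. Col1a1 and Col1a2 stand highest, with means of 961 and 763 FPKM, and Col4a6 stands lowest.

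Type I collagen dominated the family. Col1a1 made up 42.7% of all collagen counts and Col1a2 26.0%, and Col1a1 was the only collagen among the 10 genes with the most counts in the data. All 44 members together took 0.770%, 0.747% and 1.81% of the counts in Sham replicates 1 to 3, 1.24%, 2.01% and 1.69% in OVX, and 0.672%, 1.70% and 1.18% in AS-IV. The group means were 1.11% ± 0.609 (SD, n = 3) in Sham, 1.64% ± 0.388 in OVX and 1.18% ± 0.514 in AS-IV. The ranges of the groups overlapped. Chains of types II, IX, X and XI took 14.4% to 27.9% of the collagen counts in Sham, 4.61% to 14.8% in OVX and 12.4% to 14.6% in AS-IV.

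Promoter sequences are shown for 3 chains that stand for bone (Col1a2), basement membrane (Col4a1) and hypertrophic cartilage (Col10a1). They are RefSeq sequences of the GRCr8 build, from 250 bases before the annotated start to 50 after it, and 35 of the 44 members had an entry. Col1a2 lies at chr4:33518307-33518606, Col4a1 at chr16:84885347-84885646 and Col10a1 at chr20:39737286-39737585, all on the plus strand. Capitals mark 3 motifs searched on both strands, the CCAAT box (CCAAT or ATTGG), the GC box (GGGCGG or CCGCCC) and the TATA box (TATAAA or TTTATA).
Col1a2: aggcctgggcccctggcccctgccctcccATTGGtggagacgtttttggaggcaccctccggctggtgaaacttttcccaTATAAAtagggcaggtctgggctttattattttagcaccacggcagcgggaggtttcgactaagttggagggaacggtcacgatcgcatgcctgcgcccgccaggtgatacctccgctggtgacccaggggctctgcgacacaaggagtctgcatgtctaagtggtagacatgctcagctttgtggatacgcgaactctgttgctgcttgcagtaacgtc
Col4a1: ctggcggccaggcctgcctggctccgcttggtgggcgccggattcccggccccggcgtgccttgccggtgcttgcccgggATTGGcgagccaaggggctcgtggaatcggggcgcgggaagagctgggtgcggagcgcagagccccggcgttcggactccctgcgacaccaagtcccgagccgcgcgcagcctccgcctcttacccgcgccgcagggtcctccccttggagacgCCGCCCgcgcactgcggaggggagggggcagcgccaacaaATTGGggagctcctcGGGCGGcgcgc
Col10a1: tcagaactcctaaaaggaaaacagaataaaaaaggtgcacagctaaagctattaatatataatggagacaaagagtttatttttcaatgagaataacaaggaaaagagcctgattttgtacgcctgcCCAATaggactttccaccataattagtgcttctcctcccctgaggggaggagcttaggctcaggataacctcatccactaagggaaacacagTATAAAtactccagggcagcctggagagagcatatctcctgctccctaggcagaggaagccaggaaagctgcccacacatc
Col1a2 and Col10a1 each held 1 CCAAT box and 1 TATA box in this window and no GC box. Col4a1 held 2 CCAAT boxes, 2 GC boxes and no TATA box. The GC content was 57% for Col1a2, 75% for Col4a1 and 44% for Col10a1. Over the members with an entry, 11 of 35 (31.4%) held a CCAAT box, 19 of 35 (54.3%) a GC box and 4 of 35 (11.4%) a TATA box. Over all 27457 genes with an entry the shares were 39.6%, 36.0% and 15.3%.

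Basement membrane chains sit in head-to-head pairs. The starts of Col4a1 and Col4a2 are 77 bases apart on opposite strands of chromosome 16, so that their 300-base windows share 176 bases. Col4a3 and Col4a4 start 413 bases apart on chromosome 9, and Col4a5 and Col4a6 1415 bases apart on chromosome X. Col4a1 and Col4a2 were at 17.0 and 12.5 FPKM. The other 4 chains of type IV were under 1 FPKM, from 0.660 for Col4a3 down to 0.0186 for Col4a6.

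Collagen levels differed widely between libraries of a group. The median SD of log2 CPM within groups was 0.47 for the 43 collagen genes and 0.22 for all genes tested. A total of 38 of 43 lay above the median of all genes, and 21 of 43 lay above their 90th percentile. The median SD was 0.54 for fibrillar collagens, 0.62 for FACITs, 0.39 for the other collagens and 0.29 for network collagens. Col9a1, a chain of the cartilage FACIT type IX, had the widest range of all members, 68.2-fold between its lowest and highest library. Its partners Col9a3 and Col9a2 ranged 19.8-fold and 12.1-fold, Col10a1 18.0-fold and Col2a1 12.7-fold. Each of these 5 cartilage chains was lowest in OVX replicate 1 and highest in Sham replicate 3. Col8a2, a short-chain network collagen, had the smallest SD within groups of the 43 and a 1.37-fold range.

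The lowest and highest libraries of the 43 collagen genes were counted. No count over all genes stands beside these, so an uneven spread cannot be called a trait of collagens. OVX replicate 2 was highest for 17 of the 43 genes, and Sham replicates 1 and 3 for 8 each. Sham replicate 1 was lowest for 7, OVX replicate 1 for 8 and AS-IV replicate 1 for 8. The heatmap of the 9 libraries shows both patterns, with Col1a1, Col1a2, Col5a1, Col5a2 and Col12a1 low in Sham replicate 1 and the cartilage chains low in OVX replicate 1.

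**Figure D2:**
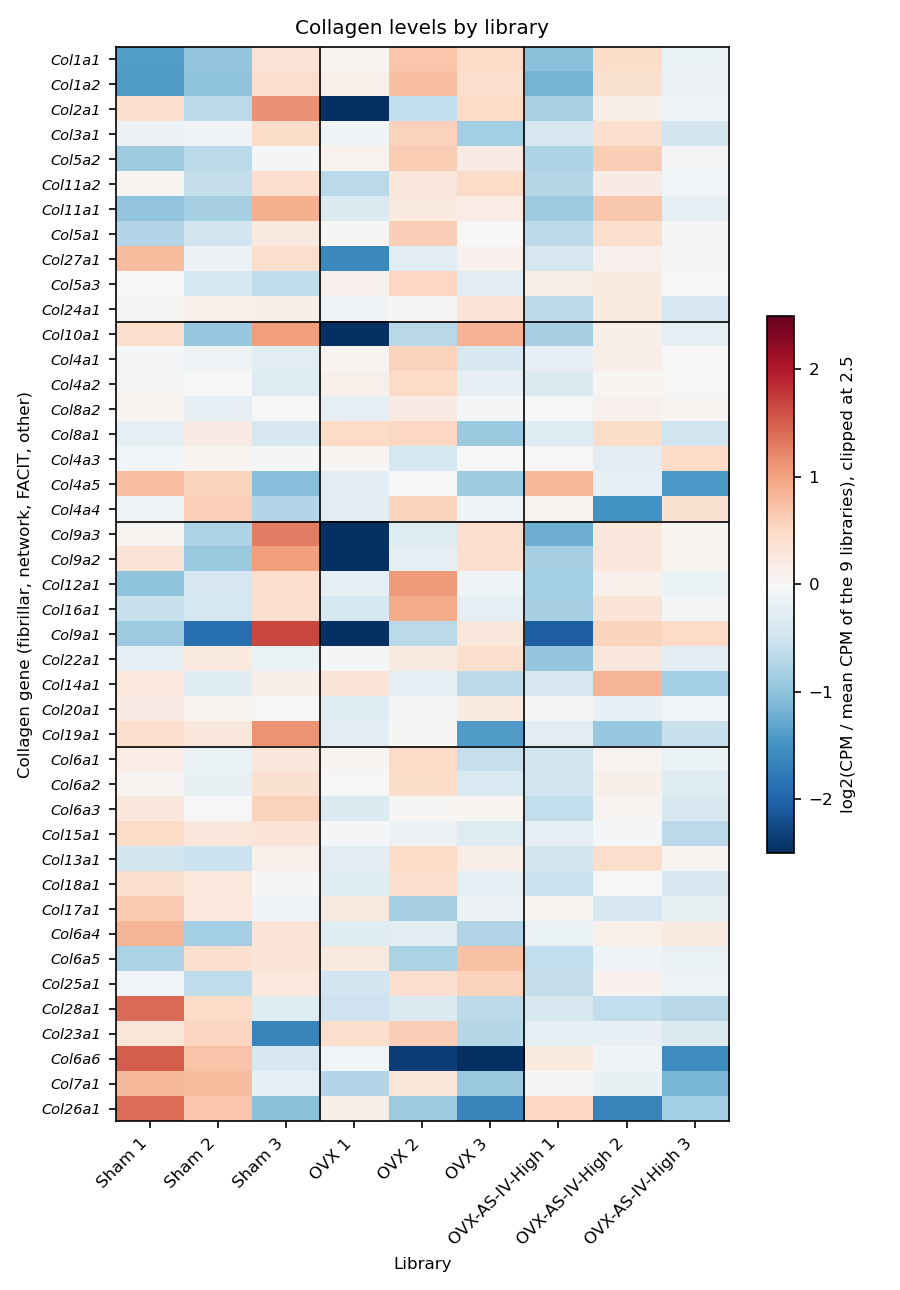
Colour gives log2 of the CPM divided by the mean CPM of the 9 libraries, clipped at 2.5, for 43 collagen genes (rows, by class) in 9 libraries (columns, by group). OVX replicate 1 is darkest blue for Col2a1, Col10a1, Col9a1, Col9a2 and Col9a3, and Col1a1 and Col1a2 are lowest in Sham replicate 1.

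The effect of ovariectomy was examined by comparing OVX with Sham. By edgeR's quasi-likelihood test, 5 of 43 collagen genes passed an unadjusted p of 0.05 (11.6%), against 16.4% of all genes tested. Col5a2 and Col5a3 were higher in OVX, and Col15a1, Col28a1 and Col6a6 were lower. The shares of all genes were 8.16% higher and 8.28% lower. With an absolute log2 fold change (log2FC) over 1 as well, 2 members passed (Col28a1 and Col6a6), against 3.11% of all genes. No collagen gene passed an adjusted p of 0.05 in edgeR's quasi-likelihood test, and 0 of the 16874 genes did. DESeq2 gave 1 such collagen gene, Col15a1, among 834 genes. On simulated counts, DESeq2 gave such a p to 50 unchanged genes and edgeR to 11. The groups did not overlap for 4 of 43 members (9.30%), 1 higher and 3 lower, against 23.3% of all genes (12.7% higher and 10.6% lower). The median log2FC was -0.06 over the collagen genes and -0.01 over all genes tested, with 20 members positive and 23 negative.

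Col15a1, the chain of a collagen at the outer face of basement membranes, had the smallest adjusted p of the family. Its level was 55.7, 48.3 and 49.7 CPM in Sham, 38.6, 35.8 and 31.8 CPM in OVX and 33.9, 38.3 and 25.3 CPM in AS-IV. All 3 Sham libraries were above all 6 libraries of ovariectomized rats. In OVX vs. Sham the log2FC was -0.53 (SE 0.15, 95% interval -0.87 to -0.20, adjusted p = 0.166, edgeR's quasi-likelihood test), a level 1.45-fold lower. It passed the unadjusted threshold in each of the 19 alternative fits, including each that left out 1 library, with log2FC from -0.60 to -0.46 when a library was left out. Endothelial markers were also lower at the median in both groups of ovariectomized rats, with a summed level of 319 to 420 CPM in Sham, 251 to 361 CPM in OVX and 265 to 280 CPM in AS-IV over 8 genes of which 0 were at 0. Of these, 3 of 8 were lower in OVX at an unadjusted p of 0.05 (Plvap, Esam and Emcn), beside 8.28% of all genes called lower. The part of endothelial cells in the Col15a1 difference was not tested.

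Col18a1, the endostatin-bearing relative of Col15a1, was at 32.1, 28.8 and 24.6 CPM in Sham, 19.6, 32.5 and 20.6 CPM in OVX and 16.6, 24.2 and 18.4 CPM in AS-IV. OVX replicate 2 lay above all Sham libraries. The log2FC in OVX vs. Sham was -0.23 (95% interval -0.72 to 0.25) and did not pass.

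Col28a1 and Col6a6 were the members that passed with an absolute log2FC over 1, and both were lower in OVX. Col26a1, Col19a1 and Col9a1 also had an absolute log2FC over 1 (-1.27, -1.09 and -1.07) but did not pass. Col28a1, a minor collagen known from peripheral nerve, was at 3.30, 1.73 and 1.01 CPM in Sham and 0.872, 0.976 and 0.787 CPM in OVX, with 28 to 120 counts per library. The Sham libraries were all above the OVX libraries, the lowest by a small margin. Its log2FC was -1.19 (SE 0.42, adjusted p = 0.218, edgeR's quasi-likelihood test). Without Sham replicate 1 it was -0.65 and no longer passed, nor did it pass without OVX replicate 3 (-1.12) or with limma on log2(FPKM + 1) (-0.28).

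Col6a6, a chain of type VI collagen, was at 6.87, 3.96 and 1.83 CPM in Sham, 2.32, 0.475 and 0.326 CPM in OVX and 2.86, 2.25 and 0.825 CPM in AS-IV, from 12 to 250 counts. OVX replicate 1 lay above Sham replicate 3, so the groups overlapped. Its log2FC in OVX vs. Sham was -2.02 (SE 0.79, adjusted p = 0.257, edgeR's quasi-likelihood test), and it did not pass without Sham replicate 1, Sham replicate 2, OVX replicate 2 or OVX replicate 3 (-1.49, -2.06, -1.67 and -1.59). Muscle markers, at the summed levels given above, were highest in the same 2 Sham libraries. Acta1, skeletal muscle actin, was at 2608, 2256 and 368 CPM in Sham, 790 CPM in OVX replicate 1, and 376 and 345 CPM in OVX replicates 2 and 3. All 9 muscle genes tested had a negative log2FC in OVX vs. Sham and 0 of 9 passed, beside 16.4% of all genes tested. The part of muscle in the Col6a6 difference was not tested.

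Type V chains, which regulate the width of type I fibrils, held the fibrillar members that passed, Col5a2 and Col5a3, 2 of its 3 chains. Col5a2 was at 161, 190 and 294 CPM in Sham and 319, 466 and 347 CPM in OVX. The groups did not overlap, and Sham replicate 3 was close to the lowest OVX library. Its log2FC was 0.81 (SE 0.34, adjusted p = 0.281, edgeR's quasi-likelihood test), 1.75-fold higher. It passed in all 10 fits that kept all libraries but lost the threshold without Sham replicate 1, Sham replicate 2, OVX replicate 2, OVX replicate 3 or AS-IV replicate 3 (log2FC from 0.63 to 1.11 over the 9 fits that left out a library).

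Col5a3 was at 41.6, 31.1 and 27.1 CPM in Sham and 45.3, 59.7 and 35.1 CPM in OVX. OVX replicate 3 lay below Sham replicate 1. The log2FC was 0.49 (SE 0.21, adjusted p = 0.282, edgeR's quasi-likelihood test), and the call was lost when only the 2 groups were fitted and in 3 fits on FPKM. It was also lost without Sham replicate 2 or 3, OVX replicate 1 or 2, or AS-IV replicate 1 or 2. Col5a1, the partner chain of Col5a2, was at 116, 140 and 226 CPM in Sham and 195, 295 and 193 CPM in OVX, and its log2FC of 0.51 (95% interval -0.21 to 1.22) did not pass.

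The chains of type I collagen had slightly larger fold changes and a wider spread. Col1a1 was at 2111, 2851 and 7186 CPM in Sham, 5772, 9033 and 7882 CPM in OVX, and 2734, 7681 and 5004 CPM in AS-IV. Sham replicate 3 lay within the OVX range, and the other 2 Sham libraries lay below it. The log2FC in OVX vs. Sham was 0.90 (SE 0.48, 95% interval -0.18 to 1.98, adjusted p = 0.369, edgeR's quasi-likelihood test). Col1a2 was at 1265, 1695 and 4629 CPM in Sham and 3707, 5698 and 4505 CPM in OVX, and its log2FC was 0.87 (95% interval -0.26 to 2.01). Both intervals included 0.

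The type I result depended on Sham replicate 3 and on the method. With all libraries kept, Col1a1 passed with limma on log2(FPKM + 1) and on log2(FPKM + 0.1) (log2FC 1.11 in both), and Col1a2 did not. Neither chain passed with limma on log2(FPKM + 1) when no filter was used. Without Sham replicate 3, 12 of 43 collagen genes passed, against 25.2% of all genes, and 7 of them were higher in OVX (Col1a1, Col1a2, Col5a1, Col5a2, Col11a1, Col12a1 and Col13a1). The log2FC of Col1a1 was then 1.61 and that of Col1a2 1.65. Without Sham replicate 1, 2 of 43 collagen genes passed (Col15a1 and Col5a3), against 12.2% of all genes. With the replicate number as a block, 10 of 43 passed, Col1a1 and Col1a2 among them, against 21.8% of all genes. No label pairs Sham with OVX libraries by number.

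Bone and muscle markers were compared beside type I collagen. Bglap, osteocalcin of osteoblasts, was at 211, 334 and 512 CPM in Sham and 636, 955 and 854 CPM in OVX. Its groups did not overlap, and its log2FC was 1.21 (SE 0.39, adjusted p = 0.199, edgeR's quasi-likelihood test). Of the 14 osteoblast genes, 11 had a positive log2FC, and the median was 0.38. Bglap alone passed, beside 8.16% of all genes called higher. The 2 Sham libraries with the lowest Col1a1 were those with the highest muscle sum, 9094 and 6366 CPM. In AS-IV the lowest Col1a1 was likewise in the library with the highest muscle sum, 4755 CPM. The parts of osteoblast number and of muscle in the type I values were not tested.

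Col3a1 was at 499.8, 520.5 and 762 CPM in Sham and 516, 824 and 307 CPM in OVX, with a log2FC of -0.11 (95% interval -0.93 to 0.70). Its sign turned without Sham replicate 3 (0.11) or OVX replicate 3 (0.17). Chains of type XI, the collagen at the core of cartilage fibrils and also a minor part of bone fibrils, did not pass either. Col11a1 was at 96.4, 107 and 354 CPM in Sham and 151, 225 and 216 CPM in OVX, and Col11a2 at 332, 214 and 429 CPM and 202, 393 and 449 CPM. The other fibrillar members, Col27a1 and Col24a1, had log2FC of -0.84 and 0.00 and did not pass, although Col27a1 passed in DESeq2, without the filter on low counts and with the replicate block.

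The cartilage chains had mostly negative fold changes in OVX vs. Sham, with intervals that included 0. Of 7 chains of types II, IX, X and XI, 5 were negative and the median log2FC was -0.70. Of the 7, 0 passed, beside 16.4% of all genes tested. Col2a1 was at 1402, 656 and 2303 CPM in Sham, 181, 684 and 1452 CPM in OVX, and 594, 1149.7 and 968 CPM in AS-IV. OVX replicate 1 was far below all other libraries, and the other 2 OVX libraries lay within the Sham range. The log2FC was -0.91 (95% interval -2.40 to 0.58). It was -0.41 when OVX replicate 1 was left out. When OVX replicate 3 was left out it was -1.75 and passed.

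Col10a1, the marker of hypertrophic chondrocytes, was at 111, 42.2 and 167 CPM in Sham and 9.27, 50.7 and 148 CPM in OVX, with a log2FC of -0.62 (95% interval -2.41 to 1.17). Col9a1 was at 22.0, 11.1 and 130.2 CPM in Sham and 1.91, 25.7 and 50.1 CPM in OVX, with a log2FC of -1.07 (95% interval -3.64 to 1.49). Its sign turned to 0.65 without Sham replicate 3. Col9a2 and Col9a3 had log2FC of -0.70 and -0.85 and did not pass.

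Cartilage markers outside the family were compared beside these. Acan, the main proteoglycan of cartilage, was at 263, 116 and 285 CPM in Sham and 47.7, 198 and 252 CPM in OVX, lowest in OVX replicate 1 like the collagens. Comp, which binds collagens of cartilage and tendon, was at 443, 389 and 347 CPM in Sham and 289, 356 and 221 CPM in OVX. Of 12 chondrocyte genes 10 were negative in OVX vs. Sham, and the median log2FC was -0.50. Sox9 alone passed, lower in OVX, beside 8.28% of all genes called lower. The summed level of the 12 chondrocyte genes was 3147, 1417 and 1420 CPM in Sham and 912, 1895 and 1143 CPM in OVX, and 0 of 12 were at 0. This sum was lowest in OVX replicate 1, like the chains of types II, IX and X. It was highest in Sham replicate 1, whereas those chains were highest in Sham replicate 3. The sum follows its most abundant genes, among them Prg4 at 845 ± 757 CPM in Sham (SD, n = 3). Of the listed genes, Acan, Hapln1, Cnmd, Matn3 and Epyc were higher in Sham replicate 3 than in Sham replicate 1. Comp, Cytl1 and Matn1 were higher in Sham replicate 1. How much growth plate or joint cartilage each sample held was not tested.

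**Figure D3:**
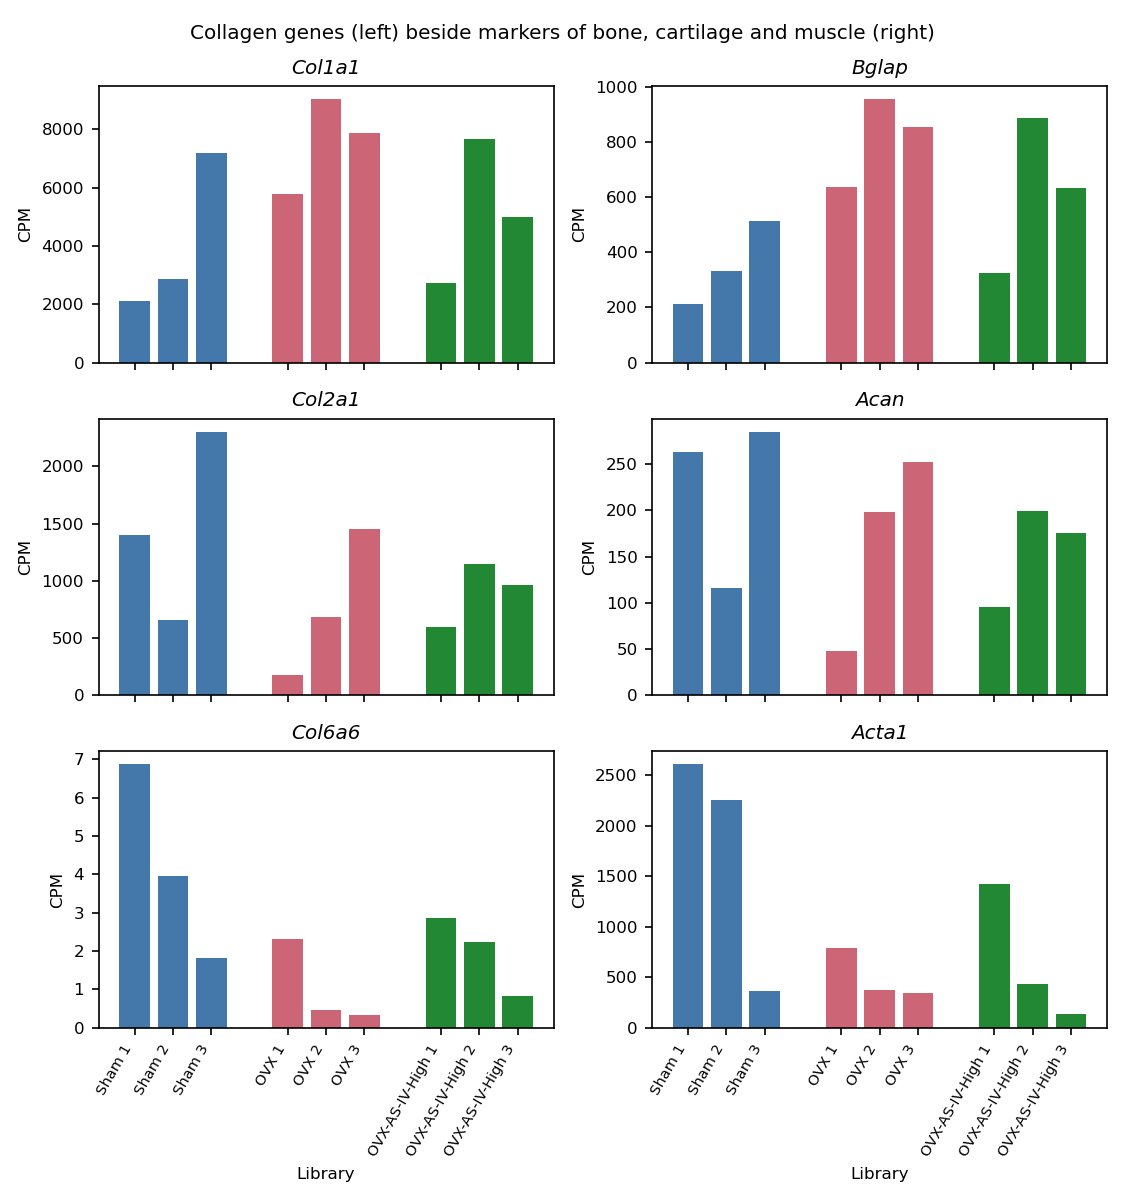
Bars give CPM in each of the 9 libraries for Col1a1, Col2a1 and Col6a6 (left) beside Bglap, Acan and Acta1 (right), markers of osteoblasts, cartilage and muscle. Col1a1 and Bglap are both lowest in Sham replicate 1, Col2a1 and Acan in OVX replicate 1, and Col6a6 and Acta1 are highest in Sham replicate 1.

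The remaining classes were the network collagens, the FACITs and the other collagens. Among network collagens 0 of 8 passed with all libraries, beside 16.4% of all genes tested. Without OVX replicate 3, Col10a1 (log2FC -1.83), Col4a1 (0.50) and Col4a2 (0.43) passed. Col4a1, a basement membrane chain, was at 108, 102 and 91.8 CPM in Sham and 118, 166 and 84.2 CPM in OVX, with a log2FC of 0.29 (95% interval -0.20 to 0.77). Col4a2 was at 80.1, 77.5 and 62.5 CPM and 85.5, 111 and 68.2 CPM, with a log2FC of 0.27. For both chains OVX replicate 2 was the highest library. The interval of Col8a2 was narrow, -0.25 to 0.32 around a log2FC of 0.04. The rarer network chains Col4a3, Col4a4, Col4a5 and Col8a1 had log2FC from -0.62 to 0.29.

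Among FACITs 0 of 9 passed, beside 16.4% of all genes tested. Col12a1, a FACIT of tendon and periosteum, was at 76.5, 115 and 205 CPM in Sham and 131, 321 and 142 CPM in OVX, with a log2FC of 0.58 (95% interval -0.41 to 1.57). Col19a1, at only 5 to 28 counts, had groups that did not overlap and a log2FC of -1.09 (adjusted p = 0.305, edgeR's quasi-likelihood test). Of the type VI chains, Col6a6 passed, as described above, and the others did not. Col6a1 was at 206, 164 and 222 CPM in Sham and 190.2, 253 and 123 CPM in OVX, and the log2FC was -0.06 (95% interval -0.62 to 0.49). Col6a2, Col6a3 and Col6a4 had log2FC of -0.04, -0.38 and -0.69. Of the 15 other collagens 3 passed, all lower in OVX and all described above, beside 8.28% of all genes called lower. A negative log2FC was found for 11 of the 15.

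**Figure D4:**
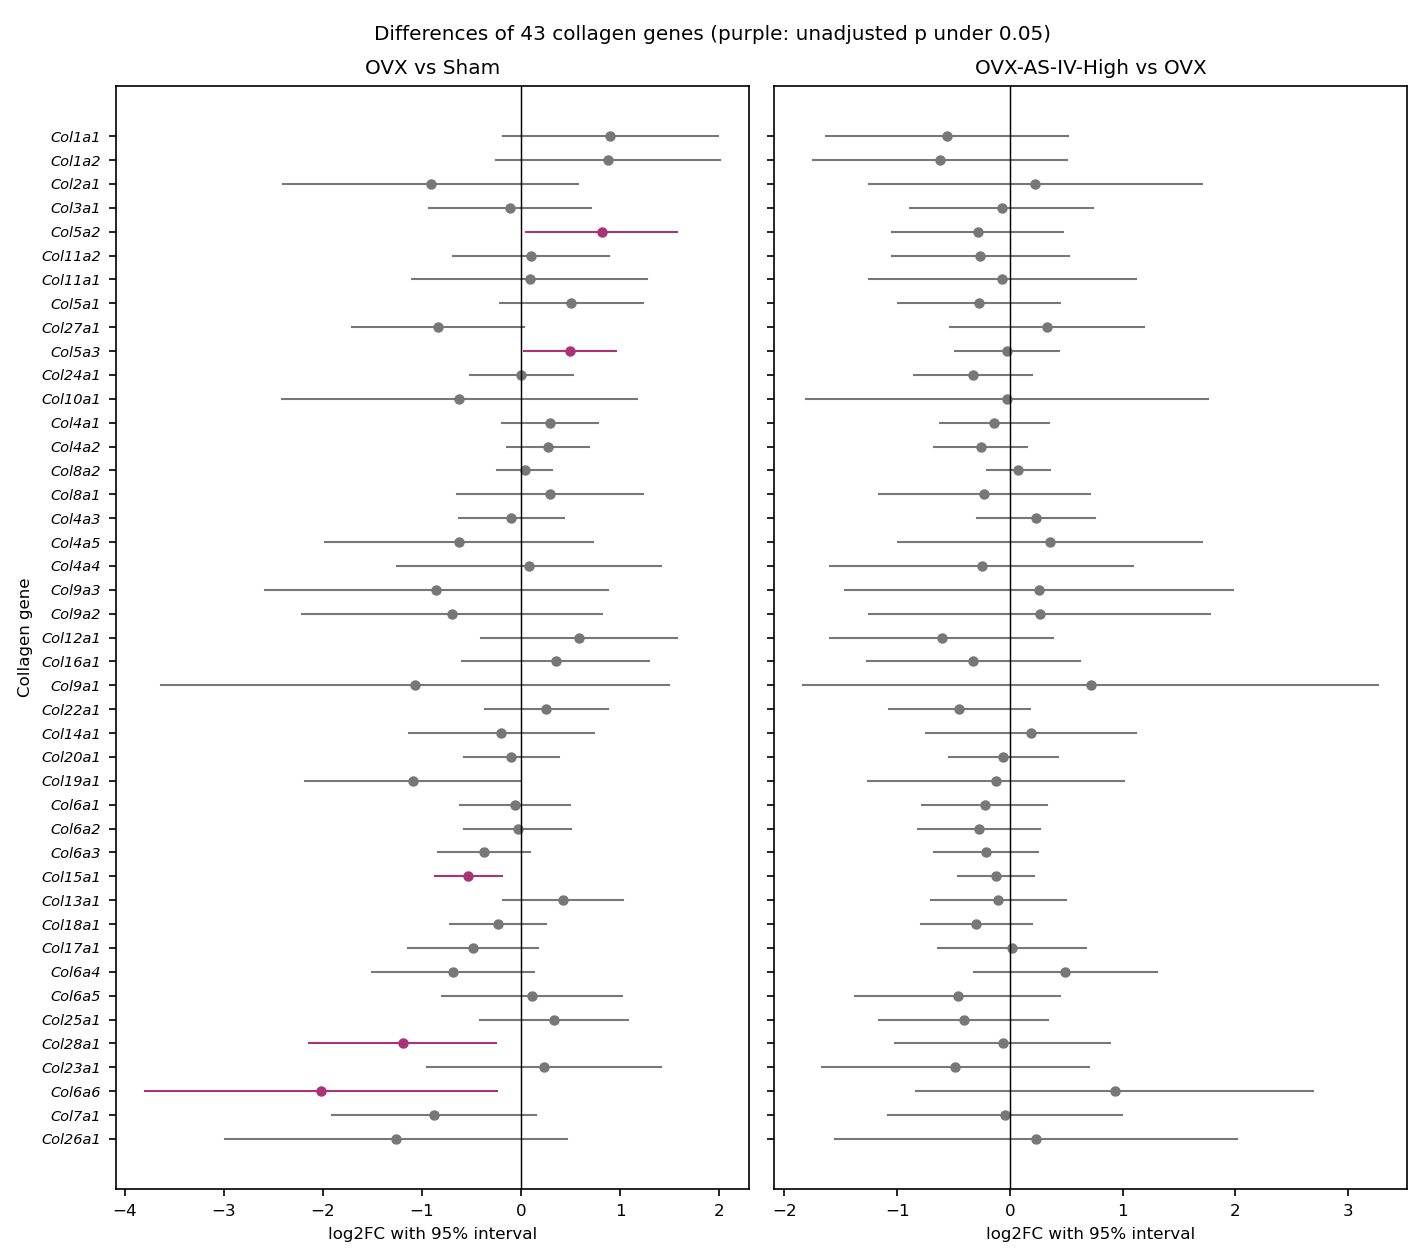
Points give the log2FC of 43 collagen genes and lines its 95% interval, for OVX vs. Sham (left) and AS-IV vs. OVX (right), with purple for an unadjusted p under 0.05. In OVX vs. Sham 5 genes are purple and in AS-IV vs. OVX 0 are.

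The effect of AS-IV was examined by comparing AS-IV with OVX. By edgeR's quasi-likelihood test, 0 of 43 collagen genes passed an unadjusted p of 0.05, against 6.45% of all genes tested (4.42% higher and 2.03% lower, and 0.83% with an absolute log2FC over 1 as well). DESeq2 also gave 0 collagen genes. The smallest adjusted p was that of Col22a1 (log2FC -0.45, adjusted p = 0.889), a FACIT of tissue junctions. With the replicate number as a block, 2 collagen genes passed, Col22a1 lower and Col6a6 higher, against 7.76% of all genes. No label pairs these groups by number. When only these 2 groups were fitted, 1 passed, Col6a4, against 7.02% of all genes. The median log2FC was -0.12, against -0.02 over all genes, with 13 members positive and 30 negative. The groups did not overlap for 1 member (2.33%), which was higher, against 12.7% of all genes (6.38% higher and 6.36% lower).

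Col6a4 was that member, at 7.03, 7.25 and 5.15 CPM in OVX and 7.74, 9.48 and 10.1 CPM in AS-IV (log2FC 0.49, 95% interval -0.32 to 1.30). Sham replicate 2 was lower than any of these at 4.84 CPM, and Sham replicate 1 was highest at 15.7 CPM. Col22a1 was at 31.9, 38.5 and 44.2 CPM in OVX and 16.7, 39.8 and 27.3 CPM in AS-IV. Its groups overlapped. Col6a6 had a log2FC of 0.93 (95% interval -0.83 to 2.69), and 1.20 with the block.

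For the abundant chains the intervals were wide. The log2FC of Col1a1 was -0.56 (95% interval -1.63 to 0.52), and that of Col1a2 was -0.62 (-1.75 to 0.51). AS-IV replicates 1 and 3 were lower than all OVX libraries for both, and AS-IV replicate 2 lay within the OVX range. Col5a2, at 176, 461 and 290.4 CPM in AS-IV, had a log2FC of -0.29 (-1.05 to 0.47). Col2a1 had a log2FC of 0.23 (-1.25 to 1.70), which turned to -0.24 without OVX replicate 1. Col15a1 had a log2FC of -0.12 (-0.46 to 0.22).

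The treated rats were also compared with Sham. Since the 3 comparisons share libraries, the values are given side by side. In AS-IV vs. Sham, 6 of 43 members passed (14.0%), 1 higher and 5 lower, against 17.6% of all genes (9.17% higher and 8.48% lower). With an absolute log2FC over 1 as well, 2 passed, against 3.15% of all genes. The groups did not overlap for 5 members, 1 higher and 4 lower, against 19.9% of all genes (9.61% higher and 10.3% lower). Col15a1 (log2FC -0.65, adjusted p = 0.107), Col28a1 (-1.26), Col6a3 (-0.59), Col18a1 (-0.53) and Col19a1 (-1.21) were lower, and Col5a3 (0.47) was higher, by edgeR's quasi-likelihood test. Col15a1, Col28a1 and Col5a3 had log2FC of -0.53, -1.19 and 0.49 in OVX vs. Sham. Col6a3, a large chain of type VI collagen, was at 177, 145 and 217 CPM in Sham, 114, 149.7 and 151 CPM in OVX, and 94.6, 153 and 111 CPM in AS-IV. Sham replicate 2 lay below AS-IV replicate 2, so these groups overlapped. The call of Col5a3 was lost with scaling by total counts only, with a stricter filter and in the fits on FPKM, and that of Col19a1 in DESeq2 and with the replicate block. Without AS-IV replicate 3, 2 members passed, against 13.7% of all genes.

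Ratios between some partner chains varied less than the chains themselves, and others did not. Col1a1 over Col1a2, as a ratio of FPKM, lay between 1.19 and 1.37 in the 9 libraries, while the chains ranged 4.28-fold and 4.51-fold. Col4a1 over Col4a2 lay between 1.18 and 1.48, and Col6a1 over Col6a2 between 1.39 and 1.77. The cartilage pair Col9a2 over Col9a3 lay between 0.647 and 1.06, a 1.64-fold range, beside the 12.1-fold and 19.8-fold ranges of the chains. Col10a1 over Col2a1, from neighbouring zones of the growth plate, lay between 0.0841 and 0.167. Other pairs varied as much as their chains. The ratio of Col5a3 to Col5a2 ranged 2.88-fold, with chains at 2.21-fold and 2.89-fold. The ratio of Col11a1 to Col11a2 ranged 2.85-fold, with chains at 3.67-fold and 2.31-fold. The low-level pairs Col4a3 with Col4a4, Col4a5 with Col4a6, and Col8a1 with Col8a2 had ratios that ranged 4.73-fold, 5.80-fold and 3.09-fold, each more than either of its chains. Both chains of a pair were read from the same libraries.

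Ratios across tissues were not steady. In Sham, Col1a1 over Col2a1 was 1.31, 3.77 and 2.71. It was 27.7, 11.4 and 4.71 in OVX and 3.99, 5.79 and 4.48 in AS-IV. All 3 OVX libraries and all 3 AS-IV libraries were above all 3 Sham libraries, and OVX replicate 1 stood highest. Col3a1 over Col1a1 ranged 6.07-fold, from 0.0476 in OVX replicate 3 to 0.289 in Sham replicate 1. Within type V, Sham ratios of Col5a1 over Col5a2 were 0.534, 0.548 and 0.571. They were 0.455, 0.472 and 0.415 in OVX and 0.513, 0.417 and 0.477 in AS-IV. All Sham ratios were above all others. The ratios were described and not tested.

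**Figure D5:**
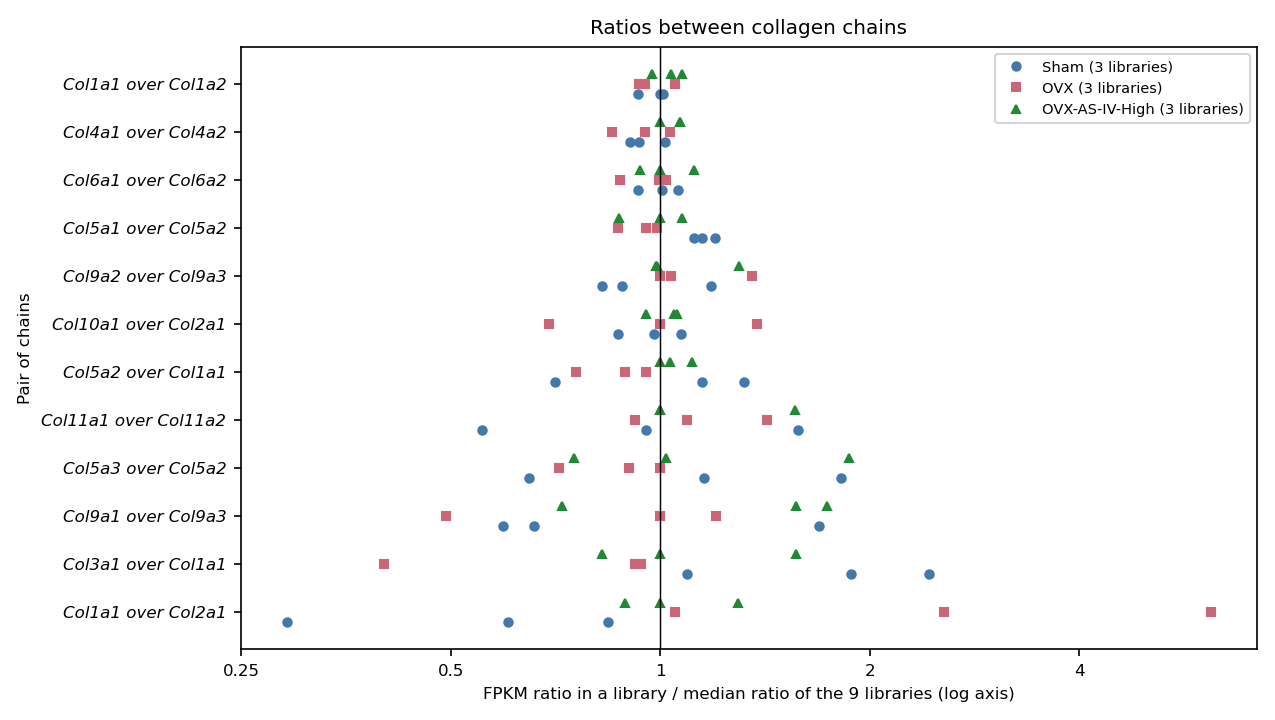
Each point is the FPKM ratio of a pair of chains in a library, divided by the median ratio of the 9 libraries, on a log axis, with 3 libraries per group. The ratio of Col1a1 to Col1a2 varies 1.15-fold over the 9 libraries, and that of Col1a1 to Col2a1 varies 21.2-fold.

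Genes that modify, fold, process and cross-link collagen were counted in lists, to be read beside the 8.28% of all genes called lower and 8.16% called higher in OVX vs. Sham. Of 15 genes for hydroxylation of proline and lysine and for glycosylation, 4 had lower levels after ovariectomy and 0 had higher ones, with a median log2FC of -0.07. They were P4ha2, a chain of prolyl 4-hydroxylase (log2FC -0.55), P3h3, of the prolyl 3-hydroxylase family (-0.33), Plod1, a lysyl hydroxylase (-0.27), and P3h2, a prolyl 3-hydroxylase (-0.71), with adjusted p from 0.224 to 0.301 in edgeR's quasi-likelihood test. P4ha2 was at 24.1, 18.4 and 15.9 CPM in Sham and 12.2, 15.0 and 12.8 CPM in OVX, and the groups did not overlap. Of 10 folding and export chaperones, 0 passed in OVX vs. Sham. Serpinh1, the collagen chaperone HSP47, was at 160, 160 and 342 CPM in Sham and 200, 232 and 245 CPM in OVX, with a log2FC of 0.03, and Sham replicate 3 was its highest library.

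Of 12 genes tested for propeptide removal and fibril assembly, 2 were lower in OVX. They were the propeptidase genes Tll1 (log2FC -1.63) and Adamts14 (-0.73). Tll1 was at 6.81, 3.78 and 2.28 CPM in Sham and 1.72, 1.37 and 1.06 CPM in OVX, and Adamts14 at 9.51, 11.9 and 12.2 CPM in Sham and 4.58, 6.81 and 8.90 CPM in OVX, both without overlap. Of 5 cross-linking genes, Lox, lysyl oxidase, was higher in OVX (log2FC 1.05, SE 0.41, adjusted p = 0.258, edgeR's quasi-likelihood test) and 0 were lower. Its level was 25.9, 17.0 and 37.1 CPM in Sham and 40.6, 86.0 and 39.3 CPM in OVX, with no overlap but a small margin between Sham replicate 3 and OVX replicate 3. Of 9 collagen receptor and uptake genes tested, Ddr2, a receptor tyrosine kinase for fibrillar collagen, was lower in OVX (-0.24).

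In AS-IV vs. OVX, 1 of the 10 chaperone genes and 1 of the 9 receptor genes passed, both higher, and 0 genes of the other 3 lists passed, beside the 4.42% of all genes called higher and 2.03% called lower. Sec23a, of the coat that carries procollagen out of the endoplasmic reticulum, had a log2FC of 0.30 and Itga2, a subunit of a collagen-binding integrin, of 0.45. Their adjusted p-values in edgeR's quasi-likelihood test were 0.678 and 0.664. Itga2 was at 16.5, 14.8 and 19.3 CPM in OVX and 24.4, 21.8 and 22.8 CPM in AS-IV, without overlap. Lox had a log2FC of -0.12 and P4ha2 of 0.00 in this comparison.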

How the data were processed

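For 9 bone libraries, the authors deposited a table of counts and a table of FPKM (3 each of Sham, OVX and OVX-AS-IV-High, called AS-IV), made from poly(A)-selected mRNA with Tophat/Bowtie2 and eXpress. The submitters' processing notes name the mRatBN7.2 build, and the annotation is not given in the sources used here. How estimates of eXpress became whole numbers, and whether strand was used, is not given, so values of overlapping genes are uncertain. FPKM, which scales by gene length and library size, served to compare genes, and TMM-scaled CPM to compare libraries.

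Counts of genes past the default filter (minimum count 10) were fitted with edgeR 4.0.16 (TMM, quasi-likelihood test, all 9 libraries, group as the term) in R 4.3.3, with Benjamini-Hochberg adjustment over 16874 genes. A member was called at an unadjusted p under 0.05. The study's results section also asks for an absolute log2FC over 1, and that count stands beside it. Standard errors came from the log2FC and the F statistic. No test was run on shares, ratios or lists. Total counts of 34874880 to 37298250 set the depth.

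The members and lists were chosen with earlier results of these data known. The text gives values by library for members at an unadjusted p under 0.05 in OVX vs. Sham or AS-IV vs. OVX (at most 12), the 3 with the highest mean FPKM in each class, and partner chains. Other genes were named after their values were seen. Marker lists not described in the report are in the closing section, except 1 list that is not reported here. No label pairs libraries by replicate number. Deviations from the group means of libraries with the same number correlated at 0.31, 0.158 and 0.13 between OVX and AS-IV. The values were 0.2, -0.161 and 0.253 between Sham and OVX, and 0.314, -0.158 and 0.435 between Sham and AS-IV. The replicate block was therefore used only as an alternative. Alternatives were DESeq2 1.42.0, limma 3.58.1 on log2(FPKM + 1) and log2(FPKM + 0.1), RLE factors or total counts, other filters, only 2 groups, the replicate block, a log2FC threshold of 0.58, and each library left out. On simulated counts for OVX vs. Sham (16662 genes, 200 changed 3-fold), edgeR gave 185 changed and 738 unchanged genes an unadjusted p under 0.05. Members were called at that threshold. An adjusted p under 0.05 was given to 151 changed and 11 unchanged genes by edgeR, and to 163 changed and 50 unchanged genes by DESeq2. Tables and plots were made in Python 3.11.15 with pandas 2.3.3 and matplotlib 3.10.9.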

Additional observations from a re-analysis of the deposited data

How the results depend on the processing

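The number of collagen genes called in OVX vs. Sham was 5. For these counts, brackets give the share of all genes called in the same fit, here 16.4%. The number was 10 with the replicate block (21.8%). Of the 5, Col5a2, Col28a1 and Col6a6 also had an absolute log2FC over 0.58, and no share of all genes is given for this threshold. The number called was 2 to 12 when a library was left out, 2 without Sham replicate 1 (12.2%) and 12 without Sham replicate 3 (25.2%). In AS-IV vs. OVX it was 0 (6.45%). It was 1 when only the 2 groups were fitted (7.02%) and 2 with the replicate block (7.76%). It was 0 to 2 when a library was left out. It was 1 without OVX replicate 1 (5.56%) or OVX replicate 3 (5.12%), and 2 without AS-IV replicate 2 (3.95%). In AS-IV vs. Sham it was 6 (17.6%), and 2 to 7 when a library was left out. It was 2 without AS-IV replicate 3 (13.7%). The collagen share of all counts without Col1a1, Col1a2 and Col3a1 was 0.397% in Sham, 0.350% in OVX and 0.323% in AS-IV, an order other than that of the full share. Leaving out a library moved the full share from 0.758% to 1.29% in Sham, from 1.46% to 1.85% in OVX and from 0.926% to 1.44% in AS-IV. The log2FC turned sign for Col3a1 in OVX vs. Sham (-0.53 to 0.17), Col9a1 in OVX vs. Sham (-1.98 to 0.65) and Col2a1 in AS-IV vs. OVX (-0.24 to 1.06) when a library was left out. Over the genes followed, 266 of 287 values under other settings and 213 of 261 with a library left out kept their direction and side of the threshold. Many of these values belonged to genes that did not pass in the main fit, so the counts do not measure how stable the calls were. In OVX vs. Sham the calls of Col5a2, Col5a3, Col6a6 and Col28a1 were each lost in some fits that left out a library. The causes were not tested. With 3 libraries per group and a median SD of 0.47 on the log2 scale, differences of the size seen for type I collagen were not resolved, and members at under 1 FPKM rested on at most 288 counts in a library.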

Other observations

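Other cell type markers were counted in OVX vs. Sham beside the 8.16% of all genes called higher and 8.28% called lower. Adipocyte genes were higher in OVX for 6 of 8 members, with Lep at 1.24, 2.14 and 1.94 CPM in Sham and 6.49, 19.4 and 5.51 CPM in OVX, and Adipoq at 32.6, 28.5 and 75.3 CPM in Sham and 104, 110 and 133 CPM in OVX. All 7 B lineage genes tested were higher, with a median log2FC of 0.68, and 4 of the 7 were lower in AS-IV than in OVX, where 2.03% of all genes were called lower. Of 7 neutrophil genes tested 2 were higher, of 8 erythroid genes 1 was lower, and 0 of 8 osteoclast genes and 0 of 10 tendon and fibroblast genes passed. In AS-IV vs. Sham, 7 of 8 endothelial genes were lower, beside 8.48% of all genes, with a median log2FC of -0.45. In the same comparison Col15a1 and Col18a1 were lower, and Col4a1 and Col4a2, also of basement membranes, had log2FC of 0.15 and 0.01. The part of endothelial cells in these values was not tested. Of 14 osteoblast genes 1 passed in AS-IV vs. Sham, Phex, which was higher (log2FC 1.03), beside 9.17% of all genes called higher. In AS-IV vs. OVX, 1 of 8 endothelial genes was lower (Pecam1), and 0 osteoblast, chondrocyte, muscle or adipocyte genes passed.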
